A study of Mus musculus with 6 samples.

Results

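The DNA replication genes are 37 genes whose products unwind, copy and seal the genome in S phase, taken by gene symbol from a list of names. All 37 were found among the 18437 genes listed, and all 37 reached 1 TPM (a length-corrected share of a library's transcripts) in at least 3 libraries, so none was left untested. They were measured by bulk RNA-seq of tongue tumours in C57BL/6 mice. LIGHT tumours (3 libraries) grew from 4MOSC1 cells engineered to overexpress LIGHT, a ligand of the TNF superfamily whose gene is Tnfsf14, and control tumours (3 libraries) grew from 4MOSC1-con cells. 4MOSC1 is a mouse oral squamous cell carcinoma line, and both groups share the host strain, the line and the injection site. The sources used here do not give the age of the mice, the promoter behind the transgene or whether the line is a single clone. Since the labels do not link libraries to mice, p-values cover the spread among these 6 samples, which may be partly technical.

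Before S phase the origin recognition complex, Cdc6 and Cdt1 load the ring of Mcm2 to Mcm7 onto DNA, where it stays inactive. At firing, Cdc45 and the 4 GINS subunits join the ring to form the active helicase, primase and DNA polymerase alpha lay primers, and the clamp PCNA, loaded by replication factor C, holds polymerases delta and epsilon on the template. In cycling cells most of these genes are transcribed together in late G1 and S phase under E2F transcription factors. In squamous epithelium, replication is normally a property of the basal layer and is lost as cells differentiate.

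The promoters of 30 of the 37 genes were found in a RefSeq table of the GRCm38.p6 build, each running from 250 bases before the annotated start to 50 after it. An E2F motif, searched on both strands as TTTCGCGC, TTTGGCGC, TTTCCCGC or TTTGCCGC with overlapping matches counted, was present in 13 of the 30 (43.3%), against 4.51% of 10495 tested genes with a promoter. It was present in 4 of the 10 genes with a promoter that were called lower in LIGHT tumours below, and in 9 of the 20 that were not called. None of 21 mitosis and spindle genes had a match, whereas 18 of those 21 (85.7%) held TTTGAA or TTTAAA, the letters of the cell cycle homology region of G2 and M genes, against 7 of 30 replication genes (23.3%) and 23.3% of tested genes. CCAAT was present in 20 of 30 replication genes (66.7%), against 42.6% of tested genes. A match is a run of letters and not a measured binding site. The 250 bases before the annotated start used for 4 genes are shown with the E2F matches in capitals. These genes were printed because their calls or fold changes differ, and no test compared them with each other. The 95% intervals of Mcm5 (-0.65 to -0.12) and Mcm7 (-0.53 to -0.10) overlapped that of Mcm6 (-0.33 to 0.17). Mcm5 and Mcm7 fell, Mcm6 belongs to the same ring and was not called, and Rfc3 had the highest fold change of the 37. For Mcm5 and Mcm7 the printed stretch overlaps the gene span of the same build. The Mcm5 span begins at 75109468. The Mcm7 span ends at 138172111, so most of the Mcm7 stretch, including its capitals, lies inside the gene. Mcm7 has 2 promoters listed, and the printed one is the one with E2F matches. The other is not printed and holds no E2F match.
Mcm5 (chr8:75109259-75109508, plus strand): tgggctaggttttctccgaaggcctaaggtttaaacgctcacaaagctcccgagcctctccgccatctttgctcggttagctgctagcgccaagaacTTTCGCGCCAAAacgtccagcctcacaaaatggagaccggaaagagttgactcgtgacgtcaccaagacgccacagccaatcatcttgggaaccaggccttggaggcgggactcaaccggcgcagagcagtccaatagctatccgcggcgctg
Mcm6 (chr1:128359706-128359955, minus strand): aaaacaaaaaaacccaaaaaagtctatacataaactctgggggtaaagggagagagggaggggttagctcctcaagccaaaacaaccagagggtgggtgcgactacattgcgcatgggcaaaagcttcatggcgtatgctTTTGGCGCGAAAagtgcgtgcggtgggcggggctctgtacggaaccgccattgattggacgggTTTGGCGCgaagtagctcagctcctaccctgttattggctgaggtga
Mcm7 (chr5:138171884-138172133, minus strand): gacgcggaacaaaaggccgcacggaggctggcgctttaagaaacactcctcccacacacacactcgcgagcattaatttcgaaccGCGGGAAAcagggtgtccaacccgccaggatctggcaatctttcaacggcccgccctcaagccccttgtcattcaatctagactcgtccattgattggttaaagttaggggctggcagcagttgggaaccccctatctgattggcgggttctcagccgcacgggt
Rfc3 (chr5:151651209-151651458, minus strand): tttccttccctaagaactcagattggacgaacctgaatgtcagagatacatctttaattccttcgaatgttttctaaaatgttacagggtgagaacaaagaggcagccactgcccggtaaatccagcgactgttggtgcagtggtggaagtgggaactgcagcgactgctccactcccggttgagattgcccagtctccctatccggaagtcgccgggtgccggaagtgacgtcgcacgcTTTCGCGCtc
In Mcm5 and in Mcm6 a pair of matches on opposite strands overlaps and is printed as a single run of capitals. Mcm6 holds a further match nearer its start and so had the most matches of these 4 genes. The printed stretches stop at the start, and Mcm7 and Rfc3 each hold 1 more match in the 50 bases after it.

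The labels were checked first. Tnfsf14 stood at 26.2, 25.9 and 23.9 TPM in the LIGHT libraries, against 0.66, 0.53 and 0.79 TPM in the control libraries. Every library held squamous markers, with Krt14 between 7000 and 12469 TPM. Of 16 T cell markers 15 rose and of 11 macrophage and monocyte markers 5 rose (45.5%), against 17.7% of all tested genes. Of 18 skeletal muscle markers 1 rose and of 18 basal keratinocyte and tumour markers 1 fell, each 5.56%, against 17.7% of all tested genes called higher and 5.41% called lower. Few calls did not mean equal levels. All 18 muscle markers had a positive log2 fold change (median 0.58), and their mean sum changed by 60.05% in LIGHT tumours. Of the basal keratinocyte and tumour markers 13 were negative and 5 positive (median -0.25). Their mean sum changed by -18.97%, and that of the 37 replication genes by -17.61%. Of 14 markers of differentiated squamous cells 5 fell (35.7%), among them Sprr1a (log2 fold change -1.48) and Klk6 (-2.31), and 2 rose, Krt4 (0.95) and Dsg1a (0.73). These 4 markers were chosen after their values were seen. The 14 summed to 32491, 41354 and 43966 TPM in LIGHT libraries and to 43964, 43609 and 60075 TPM in control libraries, and their part in the result for the replication genes was not tested. The summed level of 16 T cell markers was 326 to 392 TPM in LIGHT libraries and 86.8 to 210 TPM in control libraries, and that of 11 macrophage and monocyte markers was 1401 to 1873 TPM in LIGHT and 839 to 936 TPM in control libraries. The sum of 18 skeletal muscle markers overlapped, at 5164 to 8956 TPM in LIGHT and 3343 to 5759 TPM in control libraries, as did that of 18 basal keratinocyte and tumour markers, at 23822 to 36371 TPM in LIGHT and 35026 to 42905 TPM in control libraries. In a bulk tumour, fewer cycling cells and less replication RNA per cycling cell cannot be told apart.

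Replication genes were lower in LIGHT tumours, by modest amounts. Of the 37 genes 12 fell and 0 rose at a Benjamini-Hochberg adjusted p under 0.05, tested with limma over all 13167 genes that passed the filter on low values. The 12 are 32.4% of the replication genes, against 5.41% of all tested genes called lower and 17.7% called higher. At an unadjusted p under 0.05, 21 of the 37 were lower and 0 higher. The log2 fold change, computed on TPM + 1 as LIGHT minus control, was negative in 32 of the 37 and had a median of -0.32, against 0.09 over all tested genes. It ranged from -0.61 for Mcm2 to 0.21 for Rfc3. The 3 LIGHT libraries lay below the 3 control libraries for 17 genes (45.9%), against 11.6% of all tested genes, and above them for 1 gene, Rfc3, against 29.6% of all tested genes. The 37 genes summed to 1312, 1144 and 1122 TPM in the LIGHT libraries and to 1561, 1472 and 1310 TPM in the control libraries. The sums of LIGHT replicate 1 and control replicate 3 thus met, while the other libraries of the groups were apart. Without LIGHT replicate 2, LIGHT replicate 3, control replicate 1 or control replicate 2 the number called lower was 4, 3, 3 and 3, and with the skeletal muscle, red blood cell or basal keratinocyte markers as a covariate it was 0, 2 and 4. Calls over all tested genes shrank too. The shares called lower were 2.78%, 2.43%, 3.13% and 2.89% without these libraries, and 0.668%, 1.57% and 3.59% with these covariates. Mcm2, Gins1 and Pole2 were called lower without any 1 of the 6 libraries.

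**Figure D1:**
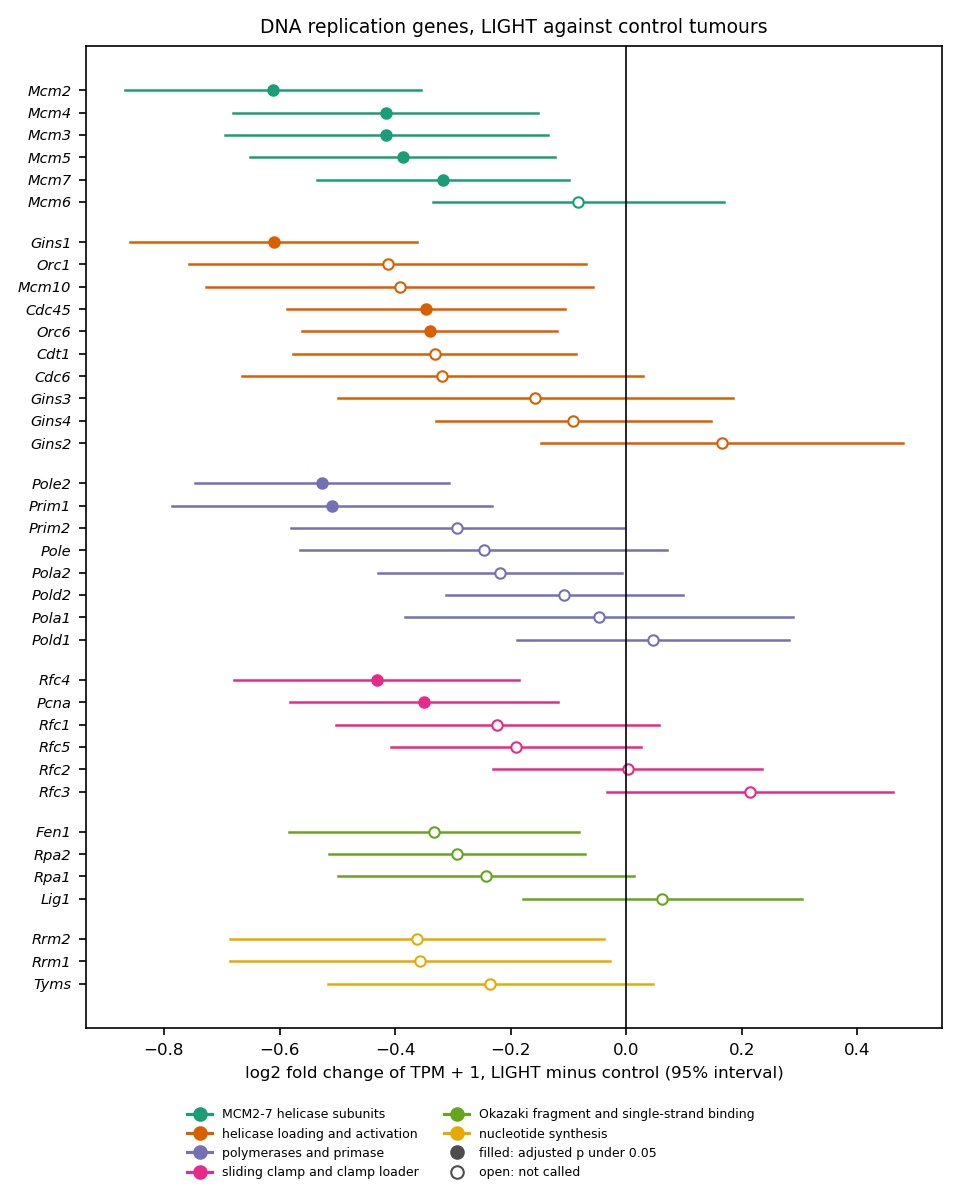
Log2 fold change of TPM + 1 (LIGHT minus control, x axis) with its 95% interval for the 37 replication genes, grouped and coloured by role and sorted within each role; filled points were called at an adjusted p under 0.05. The filled points all lie left of 0, between -0.61 and -0.32, and only 5 points lie right of 0, none of them filled.

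Mcm2 to Mcm7 form the ring-shaped motor of the replicative helicase, and 5 of the 6 fell in LIGHT tumours, with a median log2 fold change of -0.40. Mcm2, at 88883474 to 88898780 of chromosome 6 (GRCm38.p6), had 29.6, 24.5 and 25.5 TPM in LIGHT libraries, against 45.9, 39.8 and 37.6 TPM in control libraries. The groups did not overlap, and the lowest control library was well above the highest LIGHT library. Its log2 fold change was -0.61 (SE 0.11, limma adjusted p = 0.00923), a mean 35.4% lower.

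Mcm7, the most abundant subunit, had 91.8, 84.0 and 77.4 TPM in LIGHT and 111, 107 and 97.4 TPM in control libraries (log2 fold change -0.32, SE 0.09, limma adjusted p = 0.0464). Mcm4 had 38.4, 31.9 and 30.1 TPM in LIGHT and 48.7, 44.5 and 41.3 TPM in control libraries (log2 fold change -0.42, limma adjusted p = 0.0359). Mcm3 had 52.2, 43.4 and 41.1 TPM in LIGHT and 66.7, 62.6 and 53.9 TPM in control libraries (log2 fold change -0.42, limma adjusted p = 0.0432). In each of these 3 genes all LIGHT libraries were below all control libraries, and LIGHT replicate 1 came closest to the control range. Mcm5 averaged 28.9 ± 3.29 TPM in LIGHT and 38.1 ± 3.88 TPM in control libraries (SD, n = 3 each; log2 fold change -0.39, limma adjusted p = 0.0455).

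Mcm6, chosen for mention after its values were seen, was the exception. It had 50.7, 44.9 and 43.6 TPM in LIGHT libraries and 52.2, 52.7 and 43.0 TPM in control libraries, so the groups overlapped. Its log2 fold change was -0.08, with a 95% interval of -0.33 to 0.17. The ratio of Mcm2 to Mcm6 within a library was 0.584, 0.546 and 0.585 in LIGHT and 0.879, 0.754 and 0.875 in control tumours. This ratio and the other subunit ratios below were chosen after seeing the values and carry no test. The count of 5 was 1 without LIGHT replicate 2, LIGHT replicate 3, control replicate 1 or control replicate 2, leaving Mcm2, and 2 without control replicate 3.

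**Figure D2:**
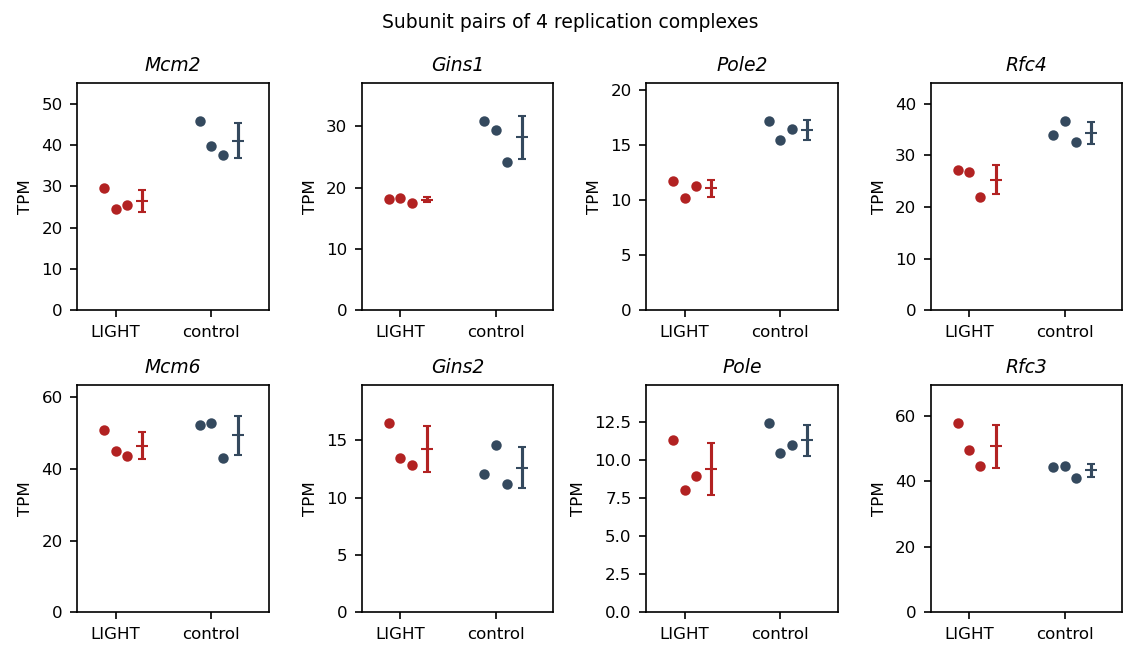
TPM in each library (points) with the group mean and SD (bar and whiskers, n = 3) for Mcm2 and Mcm6, Gins1 and Gins2, Pole2 and Pole, and Rfc4 and Rfc3, with LIGHT left of control in each panel and every axis starting at 0. In the upper row the LIGHT points lie wholly below the control points, as for Gins1 at 18.02 TPM in LIGHT against 28.2 TPM in control on average, while in the lower row Mcm6, Gins2 and Pole overlap and Rfc3 lies slightly higher in LIGHT.

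Of the 10 genes that load the ring or turn it into an active helicase, 3 fell: Gins1, Orc6 and Cdc45. Gins1, a GINS subunit at 150909556 to 150931280 of chromosome 2, had 18.2, 18.4 and 17.5 TPM in LIGHT libraries, against 30.9, 29.4 and 24.2 TPM in control libraries. The LIGHT libraries were nearly equal to each other and all lay below the control range. The log2 fold change was -0.61 (SE 0.11, limma adjusted p = 0.0084), a mean 36.0% lower.

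The other 3 subunits of the same 4-member complex did not pass the test. Gins2 had 16.5, 13.4 and 12.8 TPM in LIGHT and 12.0, 14.6 and 11.2 TPM in control libraries, with a log2 fold change of 0.17 (95% interval -0.15 to 0.48). Gins4 had 37.8, 30.9 and 33.3 TPM in LIGHT and 39.1, 35.8 and 33.9 TPM in control libraries, and Gins3 averaged 3.43 ± 0.46 TPM in LIGHT and 3.96 ± 0.76 TPM in control libraries (SD, n = 3 each). The groups overlapped for all 3. The ratio of Gins1 to Gins2 was 1.10, 1.37 and 1.37 in LIGHT and 2.56, 2.01 and 2.17 in control tumours.

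Orc6, a small subunit of the origin recognition complex, had 25.3, 24.1 and 24.8 TPM in LIGHT and 34.4, 32.4 and 28.3 TPM in control libraries (log2 fold change -0.34, SE 0.10, limma adjusted p = 0.0385). Cdc45, the helicase cofactor, averaged 17.0 ± 0.74 TPM in LIGHT and 21.9 ± 2.54 TPM in control libraries (SD, n = 3 each; log2 fold change -0.35, limma adjusted p = 0.048). Both were below the control range in every LIGHT library. Cdt1, the licensing factor that Gmnn (geminin) holds in check, had 29.01, 24.8 and 23.9 TPM in LIGHT and 35.8, 32.3 and 30.5 TPM in control libraries. Its groups did not overlap, but the adjusted p was 0.0582 (limma, log2 fold change -0.33). Orc1 (-0.41), Mcm10 (-0.39) and Cdc6 (-0.32) had log2 fold changes of similar size and missed the threshold, with limma adjusted p of 0.0833, 0.0896 and 0.166. The count of 3 in this role was 1, namely Gins1, without LIGHT replicate 2, LIGHT replicate 3, control replicate 1 or control replicate 2, and 2 without control replicate 3. The call of Cdc45 was lost whichever 1 of the 6 libraries was left out (limma adjusted p of up to 0.158). Without LIGHT replicate 1 the count was again 3, but Orc6 and Cdc45 were not called and Cdt1 and Mcm10 were.

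Among the 8 polymerase and primase genes 2 fell, Pole2 and Prim1, and the median log2 fold change was -0.23. Pole2, the second subunit of the leading-strand polymerase epsilon, lies at 69201773 to 69228205 of chromosome 12. It had 11.7, 10.2 and 11.2 TPM in LIGHT libraries and 17.2, 15.4 and 16.4 TPM in control libraries (log2 fold change -0.53, SE 0.09, limma adjusted p = 0.00907). Prim1, the catalytic primase subunit, had 27.97, 21.6 and 22.3 TPM in LIGHT and 35.8, 36.1 and 31.2 TPM in control libraries (log2 fold change -0.51, SE 0.12, limma adjusted p = 0.0217). For both genes each LIGHT library was below each control library. The call of Prim1 was lost without LIGHT replicate 2, LIGHT replicate 3, control replicate 1 or control replicate 2, with a limma adjusted p of up to 0.0801.

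The catalytic polymerase subunits had smaller fold changes and none was called. Pole averaged 9.42 ± 1.72 TPM in LIGHT and 11.3 ± 1.01 TPM in control libraries (SD, n = 3 each; log2 fold change -0.25, 95% interval -0.56 to 0.07). Pola1 had a log2 fold change of -0.05 (95% interval -0.38 to 0.29). Pold1, of the lagging-strand polymerase delta, had a log2 fold change of 0.05 (95% interval -0.19 to 0.28), which turned negative after trimmed-mean (TMM) or quantile scaling. Pold2, the accessory subunit with the highest level of the 8, had 62.4, 54.9 and 58.6 TPM in LIGHT and 67.1, 63.9 and 58.7 TPM in control libraries (log2 fold change -0.11), and LIGHT replicate 1 lay inside the control range. Pola2 (-0.22) and Prim2 (-0.29), the partners of Pola1 and Prim1, had unadjusted p of 0.0446 and 0.0476 and limma adjusted p of 0.126 and 0.131. The ratio of Pole2 to Pole was 1.03, 1.27 and 1.26 in LIGHT and 1.38, 1.47 and 1.501 in control tumours, and that of Prim1 to Pola1 was 5.50, 6.04 and 5.39 in LIGHT and 6.95, 8.58 and 7.94 in control tumours.

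The sliding clamp and its loader held 2 genes that fell, Pcna and Rfc4. Pcna, the clamp that tethers polymerases to DNA, was the most abundant of the 37 and lies at 132249286 to 132253180 of chromosome 2. It had 230, 206 and 198 TPM in LIGHT libraries, against 295, 271 and 243 TPM in control libraries. The groups did not overlap, and the log2 fold change was -0.35 (SE 0.10, limma adjusted p = 0.0415). Rfc4, a small clamp loader subunit, had 27.2, 26.7 and 22.0 TPM in LIGHT and 34.0, 36.7 and 32.5 TPM in control libraries (log2 fold change -0.43, SE 0.11, limma adjusted p = 0.0253).

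Rfc3, another small subunit of the same 5-member loader, had 57.8, 49.7 and 44.8 TPM in LIGHT libraries and 44.4, 44.8 and 41.1 TPM in control libraries. The lowest LIGHT library was only just above the highest control library, and the log2 fold change of 0.21 had a 95% interval of -0.03 to 0.46 (limma adjusted p = 0.189). Rfc5 had 59.8, 53.5 and 53.4 TPM in LIGHT and 67.1, 66.1 and 57.6 TPM in control libraries (log2 fold change -0.19, limma adjusted p = 0.181). Rfc2 averaged 57.7 TPM in each group, with a log2 fold change of 0.0021 that turned negative after trimmed-mean or quantile scaling. Rfc1, the large subunit, averaged 20.5 ± 2.77 TPM in LIGHT and 24.0 ± 2.12 TPM in control libraries (SD, n = 3 each; log2 fold change -0.22, limma adjusted p = 0.221). The ratio of Rfc4 to Rfc3 was 0.471, 0.537 and 0.491 in LIGHT and 0.767, 0.819 and 0.789 in control tumours. The call of Pcna was lost without LIGHT replicate 2, LIGHT replicate 3, control replicate 1 or control replicate 2 (limma adjusted p of up to 0.142), and that of Rfc4 without LIGHT replicate 3 or any 1 control replicate (up to 0.0881).

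No gene of Okazaki fragment processing or single-strand binding was called with limma, although 3 of the 4 had negative fold changes and 2, Fen1 and Rpa2, had an unadjusted p under 0.05. Fen1, the flap endonuclease that trims Okazaki fragments, had 28.3, 24.8 and 27.3 TPM in LIGHT and 37.9, 34.5 and 29.9 TPM in control libraries (log2 fold change -0.33, limma adjusted p = 0.062). Rpa2, a subunit of the single-strand binding protein RPA, had 20.5, 18.5 and 16.8 TPM in LIGHT and 22.9, 23.1 and 22.8 TPM in control libraries (log2 fold change -0.29, limma adjusted p = 0.0621). For both, the LIGHT libraries were all below the control libraries. Rpa1, the large subunit, had 43.9, 38.5 and 38.3 TPM in LIGHT and 51.9, 50.5 and 41.5 TPM in control libraries (log2 fold change -0.24, limma adjusted p = 0.153), with LIGHT replicate 1 inside the control range. Lig1, the ligase that seals the fragments, had 18.2, 15.5 and 15.8 TPM in LIGHT and 16.5, 16.5 and 14.3 TPM in control libraries. Its groups overlapped, and its log2 fold change of 0.06 (95% interval -0.18 to 0.30) turned negative after trimmed-mean or quantile scaling. Under each of these scalings 3 of the 4 genes were called lower, and 1 was without LIGHT replicate 1 or control replicate 3. The shares of all tested genes called lower were 15.2% and 13.8% under these scalings, against 5.41% as deposited. Without these libraries they were 5.98% and 3.2%.

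The 3 nucleotide synthesis genes had negative fold changes that missed the limma threshold, and for 2, Rrm1 and Rrm2, the unadjusted p was under 0.05. Rrm1, the large subunit of ribonucleotide reductase, which makes deoxyribonucleotides, had 52.7, 38.9 and 40.3 TPM in LIGHT and 64.5, 54.1 and 50.4 TPM in control libraries (log2 fold change -0.36, SE 0.14, limma adjusted p = 0.111). Rrm2, its small subunit, had 34.0, 29.6 and 28.7 TPM in LIGHT and 47.4, 40.1 and 32.9 TPM in control libraries (log2 fold change -0.36, SE 0.14, limma adjusted p = 0.102). In both genes LIGHT replicate 1 lay above control replicate 3. Tyms, thymidylate synthase, averaged 12.8 ± 0.50 TPM in LIGHT and 15.4 ± 2.32 TPM in control libraries (SD, n = 3 each; log2 fold change -0.24, limma adjusted p = 0.201). All 3 genes were called lower with trimmed-mean factors and with quantile normalization, 2 with the replicate block, and 1 without LIGHT replicate 1 or control replicate 3. The shares of all tested genes called lower were 15.2%, 13.8%, 6.89%, 5.98% and 3.2% in these settings, against 5.41% as deposited.

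**Figure D3:**
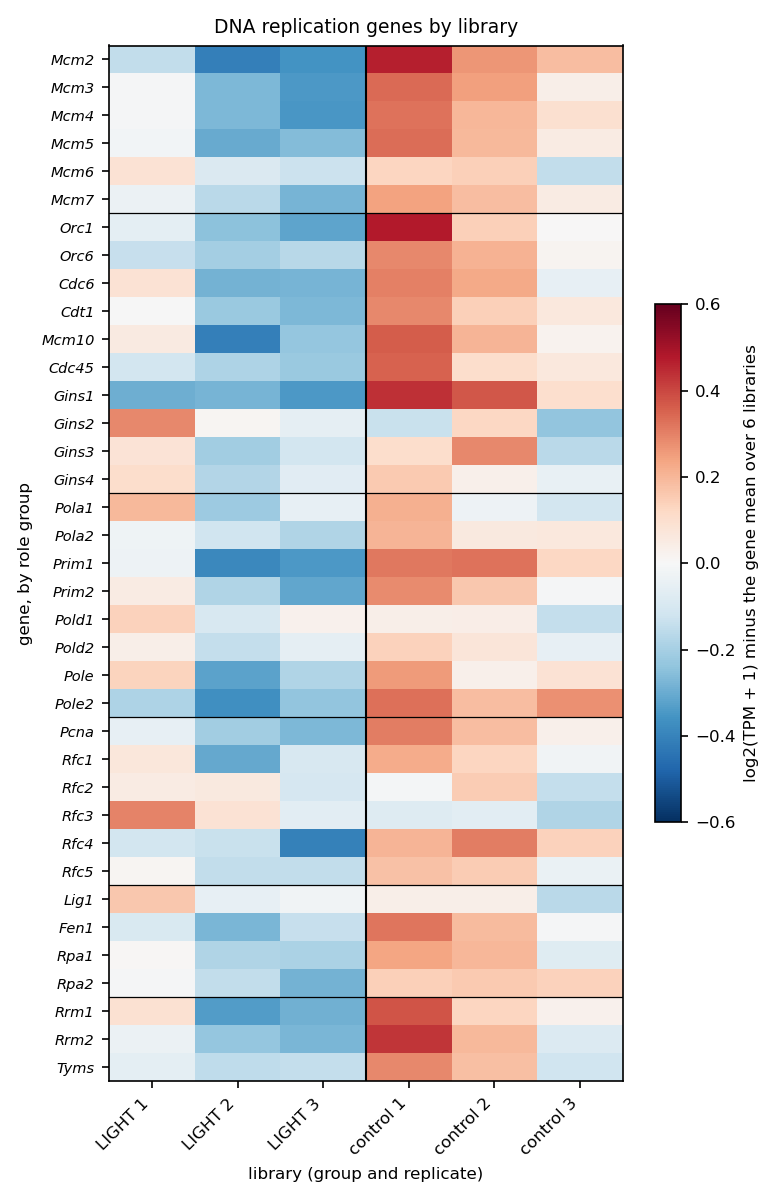
Each cell is log2(TPM + 1) of a replication gene in a library minus that gene's mean over the 6 libraries, with LIGHT libraries left of the line and control libraries right of it, and horizontal lines between the roles. Blue prevails in LIGHT replicates 2 and 3 and red in control replicates 1 and 2, while LIGHT replicate 1 and control replicate 3 are pale; control replicate 1 is highest of the 6 libraries for 27 genes.

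Most of the genes also ranked the libraries of a group alike. LIGHT replicate 1 was the highest of the LIGHT libraries for 35 of the 37 genes, and control replicate 3 was the lowest of the control libraries for 34. The same ranks were not counted over all tested genes. LIGHT replicate 1 also had the highest trimmed-mean factor of its group (1.082), and control replicate 3 the lowest of its group (0.913). The part of this library-wide scale in the ranks was not tested. Among all 6 libraries, control replicate 1 was highest for 27 genes, and the lowest value fell in LIGHT replicate 2 for 16 genes and in LIGHT replicate 3 for 15. The coefficient of variation within a group was 2.35% to 19.4% in LIGHT and 0.60% to 20.4% in control libraries, with a median of 10.2% in each. Other marker sums varied between the same libraries. Red blood cell markers summed to 119, 2086 and 896 TPM in LIGHT and to 70.0, 453 and 86.8 TPM in control libraries, and basal keratinocyte and tumour markers to 36371, 23822 and 34322 TPM in LIGHT and to 42905, 35026 and 38714 TPM in control libraries. The part of these cell types in the fall of the replication genes was not tested beyond the covariate values given above. The summed replication level divided by the basal keratinocyte and tumour sum, which is mostly keratin, was 0.0361, 0.0480 and 0.0327 in LIGHT and 0.0364, 0.0420 and 0.0338 in control tumours, so the groups overlapped on that scale.

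Beyond the 37, 89 further replication pathway genes were measured and tested, of which 19 fell (21.3%, against 5.41% of all tested genes) and 4 rose (4.49%, against 17.7%), with a median log2 fold change of -0.21. Of 10 genes for origin firing and licensing control 4 fell: Dbf4 and Cdc7, the kinase that fires origins, Cdk1 and Gmnn. Gmnn averaged 42.6 ± 5.06 TPM in LIGHT and 62.5 ± 4.66 TPM in control libraries (SD, n = 3 each; log2 fold change -0.55, limma adjusted p = 0.0122), Dbf4 20.8 TPM in LIGHT and 31.6 TPM in control libraries (-0.59, limma adjusted p = 0.0188), and Cdk1 22.4 TPM in LIGHT and 30.9 TPM in control libraries (-0.45, limma adjusted p = 0.0167). Of 14 replication-coupled chromatin genes 5 fell, among them Uhrf1, which recruits the maintenance DNA methyltransferase, at 45.7 TPM in LIGHT and 67.8 TPM in control tumours (-0.56, limma adjusted p = 0.00923), the histone chaperone Asf1b (-0.43, limma adjusted p = 0.0154) and Mms22l (-0.48, limma adjusted p = 0.0278). Among 13 E2F and pocket protein genes, E2f2 (4.38 and 7.32 TPM in LIGHT and control tumours, log2 fold change -0.62, limma adjusted p = 0.0143) and E2f7 (-0.58, limma adjusted p = 0.0376) fell, and Rbl2, a pocket protein of resting cells, rose (0.29, limma adjusted p = 0.0493). The call of Rbl2 was lost after trimmed-mean scaling (limma adjusted p = 0.117) and without any 1 of the 6 libraries.

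Of 23 other origin and fork subunits 3 fell, Recql4 (-0.52, limma adjusted p = 0.0253), Wdhd1 and Top2a, and 2 rose. The risers were Orc3, at 9.62 TPM in LIGHT and 6.87 TPM in control tumours (log2 fold change 0.43, limma adjusted p = 0.0328), and Pold4, the smallest polymerase delta subunit, at 82.9 and 63.4 TPM in LIGHT and control tumours (0.38, limma adjusted p = 0.012). The call of Pold4 was lost after trimmed-mean scaling (limma adjusted p = 0.051), and that of Orc3 after quantile scaling (limma adjusted p = 0.056) and without any 1 library except LIGHT replicate 2. Of 18 other nucleotide synthesis genes 4 fell, among them Shmt1 (-0.59, limma adjusted p = 0.0139), Tk1 and Cad. Samhd1 is a dNTP hydrolase that myeloid and T cells also express. It rose to 565 TPM in LIGHT, against 374 TPM in control tumours (0.57, limma adjusted p = 0.0343). Its call was lost without any 1 control library and after trimmed-mean or quantile scaling. It was also lost with no filter on low values and with the skeletal muscle, basal keratinocyte or red blood cell covariate. Of 11 checkpoint and fork protection genes 1 fell (9.09%, near the share of all tested genes), Chek1 (-0.47, limma adjusted p = 0.0246), while Clspn (-0.45) and Tipin (-0.24) missed the threshold with limma adjusted p of 0.0623 and 0.12. Across the 89 genes the number lower was 5 and 3 without LIGHT replicates 2 and 3, and 7, 5 and 10 without control replicates 1, 2 and 3. Of all tested genes, 2.78%, 2.43%, 3.13%, 2.89% and 3.2% were called lower in the same order. The number higher was 2, 3 and 2 without LIGHT replicates 1, 2 and 3, and 1 without any 1 control replicate. It was 1 with trimmed-mean factors, quantile normalization, no filter on low values or the red blood cell covariate. With the skeletal muscle covariate it was 0, and with the replicate block or the basal keratinocyte covariate 3. The number lower was 27 without LIGHT replicate 1, 50 with trimmed-mean factors, 42 with quantile normalization and 28 with the replicate block. The shares of all tested genes called lower moved too, to 5.98%, 15.2%, 13.8% and 6.89% in these settings. With no filter on low values 10 were lower, with the basal keratinocyte covariate 9, and with the skeletal muscle or red blood cell covariate 0. The shares of all tested genes were then 3.22%, 3.59%, 0.668% and 1.57%.

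**Figure D4:**
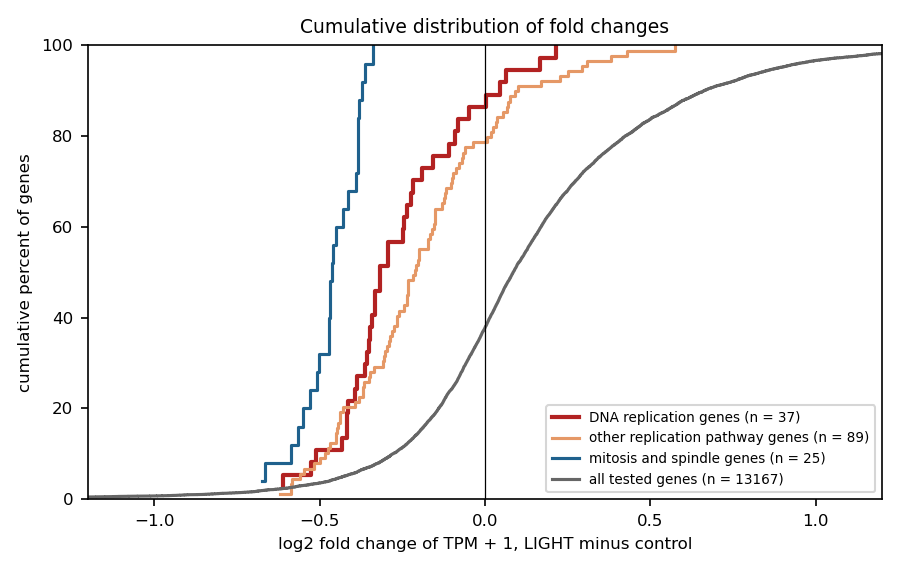
Cumulative percent of genes (y axis) at or below each log2 fold change of TPM + 1, LIGHT minus control (x axis, drawn from -1.2 to 1.2), for 37 replication genes, 89 other replication pathway genes, 25 mitosis and spindle genes and 13167 tested genes. The replication curve lies left of that of all genes, with medians of -0.32 and 0.09, and right of the mitosis curve, whose median is -0.46.

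Mitosis and spindle genes, which act later in the same cycle, were set beside the replication genes. Of 25 such genes 20 fell (80%, against 5.41% of all tested genes) and 0 rose (against 17.7%). Their median log2 fold change was -0.46 and their range -0.67 to -0.34, against -0.61 to 0.21 for the replication genes. Mad2l1, a spindle checkpoint protein, averaged 40.7 ± 2.19 TPM in LIGHT and 60.6 ± 0.47 TPM in control libraries (SD, n = 3 each; log2 fold change -0.56, limma adjusted p = 0.00365). Ccnb1, cyclin B1, averaged 44.2 and 70.2 TPM in LIGHT and control tumours (-0.66, limma adjusted p = 0.00897), and Cenpa, the centromeric histone, 55.9 TPM in LIGHT and 77.4 TPM in control tumours (-0.46, limma adjusted p = 0.0141). The summed replication level divided by the summed mitosis level was 1.47, 1.53 and 1.46 in LIGHT and 1.33, 1.26 and 1.31 in control tumours. The groups did not overlap in this ratio, for which no test was made. The mitosis count was 3, 2, 5 and 4 without LIGHT replicates 2 and 3 and control replicates 1 and 2. It was 0, 1 and 6 with the skeletal muscle, red blood cell and basal keratinocyte covariates, and 25 with trimmed-mean factors, with quantile normalization and without LIGHT replicate 1. Of all tested genes, 0.668%, 1.57% and 3.59% were called lower with these covariates in the same order. The shares were 15.2% with trimmed-mean factors, 13.8% with quantile normalization and 5.98% without LIGHT replicate 1. Of 12 G1 cyclin and inhibitor genes 0 fell with limma (1 at an unadjusted p under 0.05) and 1 rose (8.33%, below the 17.7% of all tested genes called higher). The riser was Cdkn2a, at 144 ± 11.1 TPM in LIGHT and 79.4 ± 9.55 TPM in control libraries (SD, n = 3 each; log2 fold change 0.85, limma adjusted p = 0.0028). Cdk6 (0.56) and Ccnd3 (0.25) missed the threshold with limma adjusted p of 0.0587 and 0.0917.

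**Figure D5:**
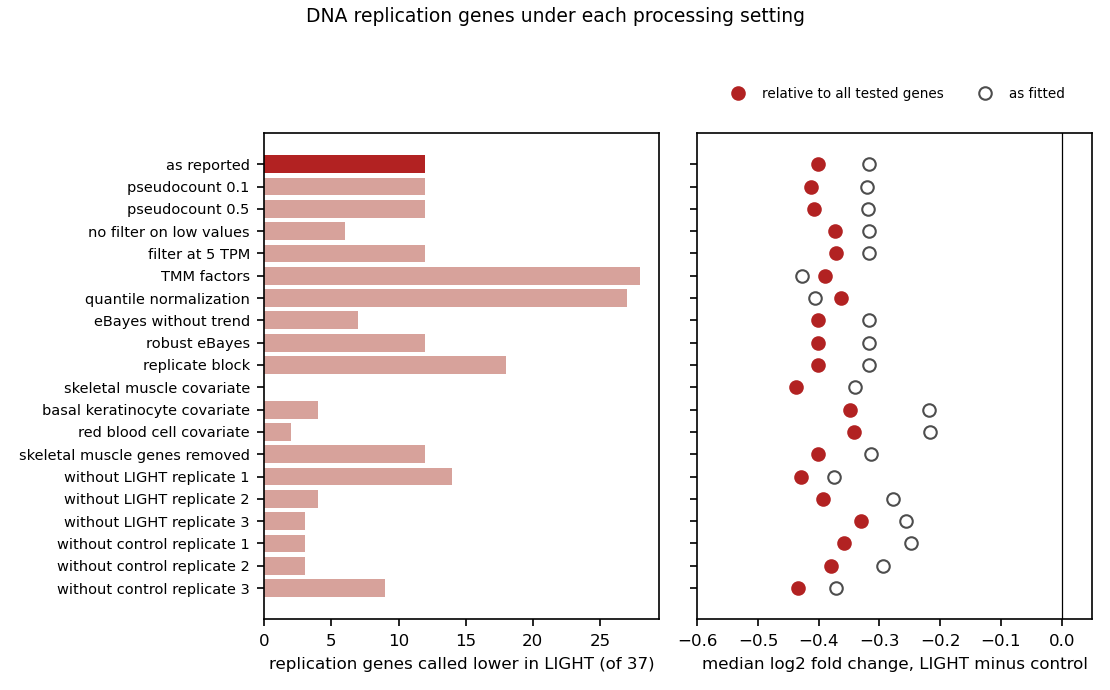
Left, the number of replication genes called lower in LIGHT under each processing setting (x axis, out of 37, or 33 with the filter at 5 TPM). Right, their median log2 fold change as fitted (open) and minus the median of all tested genes in the same fit (filled), which stays between -0.44 and -0.33 while the number called ranges from 0 to 28.

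The sizes above depend on the scaling of the libraries. TPM are shares of a fixed total, and with trimmed-mean factors the median over all tested genes was -0.04 on the log2 scale, against 0.09 as deposited. The replication median was then -0.43 and 28 of the 37 genes were called lower, and after quantile normalization it was -0.41 with 27 called. The 28 comprised 5 of 6 MCM genes, 7 of 10 loading and activation genes, 6 of 8 polymerase and primase genes, 4 of 6 clamp and loader genes, 3 of 4 Okazaki and single-strand binding genes and 3 of 3 nucleotide synthesis genes. All tested genes called lower were 15.2% and 13.8% under these scalings. Relative to the median of all tested genes the replication genes stood at -0.40 as deposited, -0.39 with trimmed-mean factors and -0.36 when quantile normalized. For 10 of the 37 genes an exon overlaps an exon of another protein-coding gene in GENCODE M21. The overlap is on the opposite strand for 9, namely Mcm7, Orc6, Cdc45, Gins2, Rfc2, Rfc4, Rfc5, Fen1 and Lig1. It is on the same strand for Pole2, and Pcna and Tyms have named pseudogenes. The sources used here do not say how reads shared by such genes were counted, so levels of these genes are less certain.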

How the data were processed

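Bulk tumour RNA was depleted of ribosomal RNA before sequencing, per the labels' protocols. HISAT, Bowtie2 and the build GRCm38.p6 are named in the submitters' processing notes. The sources used here give no quantifier, annotation or read filter. The authors deposited TPM per gene, 1 column per library, each summing to the same total over 18437 genes. TPM keep no depth, so sequencing depth is unknown. Their precision rests on 3 libraries a group.

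The 13167 genes that reached 1 TPM in 3 or more libraries entered limma 3.58.1 (R 4.3.3) as log2(TPM + 1) (two-sided, mean-variance trend, Benjamini-Hochberg adjustment, threshold 0.05). This understates the change of low genes. Intervals are limma's 95% intervals. The code was tested on simulated data. Figures used matplotlib 3.10.9.

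The 37 genes, the lists, the tests and the alternatives were chosen with earlier results of these data known. Per-library values are given for the 2 most abundant genes and the 2 with the smallest p of each role, and for the 3 lowest and 3 highest fold changes; of each other list, up to 3 genes with the smallest p and any called against its majority are named. The other genes named were chosen after their values were seen. Alternatives were other pseudocounts, filters, scalings and variance priors, marker covariates, removal of muscle genes, a replicate block and each library left out. Sequences are from RefSeq (GRCm38.p6), and gene spans from the same build. No 2 libraries were identical. A gene that this rule would name is not reported here.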

Additional observations from a re-analysis of the deposited data

How the results depend on the processing

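The number of replication genes called lower, 12 as reported, was 6 with no filter on low values, 7 with eBayes without the trend, 28 with trimmed-mean factors, 27 with quantile normalization, and 0, 4 and 2 with the skeletal muscle, basal keratinocyte and red blood cell covariates. Leaving out 1 library gave 3 to 14. It was 12 with pseudocounts of 0.1 and 0.5, the filter at 5 TPM, robust eBayes and the muscle genes removed. No gene of the 37 was called higher in any of the 19 settings. With the muscle covariate the median log2 fold change was -0.34 with a median SE of 0.18, against -0.32 and 0.11 as reported, while only 0.668% of all tested genes were called lower. With the keratinocyte and red blood cell covariates the median was -0.22 in both, with a median SE of 0.11 and 0.13. Of all tested genes 3.59% and 1.57% were then called lower. The cause of these lost calls was not tested.

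The sign differed from the reported one in 22 of 699 values, in 5 genes near 0. Gins4 was at 0.0049 and 0.018 with the keratinocyte and red blood cell covariates, where Pola1 was at 0.11 and 0.12 and Rfc2 at -0.026 and -0.047. With trimmed-mean and quantile scaling Pold1 was at -0.084 and -0.049, Rfc2 at -0.13 and -0.055, and Lig1 at -0.066 and -0.043. Leaving out 1 library gave -0.16 to 0.049 for Pola1, -0.014 to 0.10 for Pold1, -0.069 to 0.079 for Rfc2 and -0.0037 to 0.10 for Lig1. The cause was not tested.

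Same-numbered LIGHT and control libraries had correlations of their deviations from the group means of 0.37, 0.237 and 0.00995. Those of differently numbered libraries ran from -0.447 to 0.332. LIGHT replicate 1 correlated most with its own number. LIGHT replicates 2 and 3 correlated more with control replicates 3 (0.332) and 1 (0.0877) than with their own numbers. With 3 libraries a group these values cannot settle whether the numbers pair the samples, and the reported fit did not pair them. With the replicate block 18 of the 37 genes were called lower, and 907 of all tested genes against 712 without it. With 3 libraries a group and unknown depth, the smallest change called among the 37 genes was -0.32 (Mcm7), and Cdt1 and Fen1, both at -0.33, were not called.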

Other observations

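The ratio of Cdt1 to Gmnn, the licensing factor and its inhibitor, was 0.610, 0.581 and 0.638 in LIGHT and 0.530, 0.522 and 0.523 in control tumours. The groups did not overlap, and the ratio was chosen after its values were seen and carries no test. The ratio of Rrm2 to Rrm1, the subunits of ribonucleotide reductase, overlapped, at 0.645, 0.760 and 0.713 in LIGHT and 0.735, 0.741 and 0.653 in control tumours. The 37 genes lie on 13 chromosomes, with 7 on chromosome 5.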
